A study of Mus musculus with 16 samples.

Results

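Zfp318 and the heavy chain genes of IgM and IgD, Ighm and Ighd, were followed across 16 RNA sequencing libraries of mouse B cells from the spleen. The 3 genes were found by symbol in both deposited count tables, which share 22675 genes. The cells were sorted 7 days after C57BL/6 mice were immunized with the hapten carrier NP-OVA together with LPS and alum. By their labels they expressed B220 and CD38, bound the hapten NIP and lacked surface IgD, CD138, GL7 and FAS, a memory-like phenotype outside germinal centers and plasma cells. Each library was made from about 1000 cells. All mice carried AID-Cre, which is active in B cells that express the deaminase AID, and the B1-8hi GFP background. B1-8hi is a heavy chain variable region knock-in that binds NP and NIP together with a lambda light chain. KOTP libraries held tdTomato-positive and KOTN libraries tdTomato-negative cells of mice with 2 copies of the ZSDAT allele of Zfp318 (genotype ZSDAT/ZSDAT). HetTP and HetTN libraries held tdTomato-positive and tdTomato-negative cells of mice with 1 copy (ZSDAT/+). Each of the 4 groups had 4 libraries. No group without the allele was analysed here, and the labels do not say which part of Zfp318 the allele alters, nor whether the libraries of a group came from separate animals. P-values therefore measure the spread between these libraries, which may be technical.

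Ighm and Ighd lie one behind the other and are transcribed as one long RNA in mature naive B cells. Alternative splicing and polyadenylation join the same variable region to the constant exons of either gene, so that one cell can carry IgM and IgD of the same specificity. Zfp318 encodes a nuclear zinc finger protein of mature B cells. In mice it is known to be needed for IgD, because it prevents the long RNA from being ended between the Ighm and Ighd exons. Class switching deletes both genes from the rearranged allele and puts a downstream IgG, IgA or IgE gene in their place.

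Ighm (ENSMUSG00000076617, chr12:113418558-113422730, minus strand) and Ighd (ENSMUSG00000104213, chr12:113406604-113416324, minus strand) are annotated in GENCODE M21 on GRCm38 with a gap of 2233 bases between them. Zfp318 (ENSMUSG00000015597) lies on another chromosome, at chr17:46383731-46420920 on the plus strand. The membrane form of Ighm has 6 coding exons with 1427 coding bases, and that of Ighd has 5 with 872. Reads are counted over these exons, so the sequences below show how far the IgM and IgD messages can be told apart. The first 60 coding bases of each constant region come from the first constant exon, chr12:113422671-113422730 for Ighm and chr12:113416265-113416324 for Ighd. The last 60 coding bases of the membrane forms lie within chr12:113418829-113419006 for Ighm and chr12:113407538-113407817 for Ighd, across the last intron. All are from the GRCm38 transcripts of GENCODE M21, in the direction of transcription, and capitals mark positions at which the Ighm and Ighd stretches have the same base.
Ighm, first 60 coding bases: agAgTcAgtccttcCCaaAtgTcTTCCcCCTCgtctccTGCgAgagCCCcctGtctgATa
Ighd, first 60 coding bases: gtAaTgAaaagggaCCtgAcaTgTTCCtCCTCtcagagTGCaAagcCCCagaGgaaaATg
Ighm, last 60 coding bases: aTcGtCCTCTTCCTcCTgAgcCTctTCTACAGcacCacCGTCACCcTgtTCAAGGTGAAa
Ighd, last 60 coding bases: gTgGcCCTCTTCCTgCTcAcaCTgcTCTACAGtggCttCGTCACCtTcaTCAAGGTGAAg
The starts of the constant regions shared 25 of 60 bases (41.7%) and the ends of the membrane forms shared 42 of 60 (70.0%). Across the whole coding sequences of the membrane forms the longest run common to Ighm and Ighd was 11 bases.

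**Figure D1:**
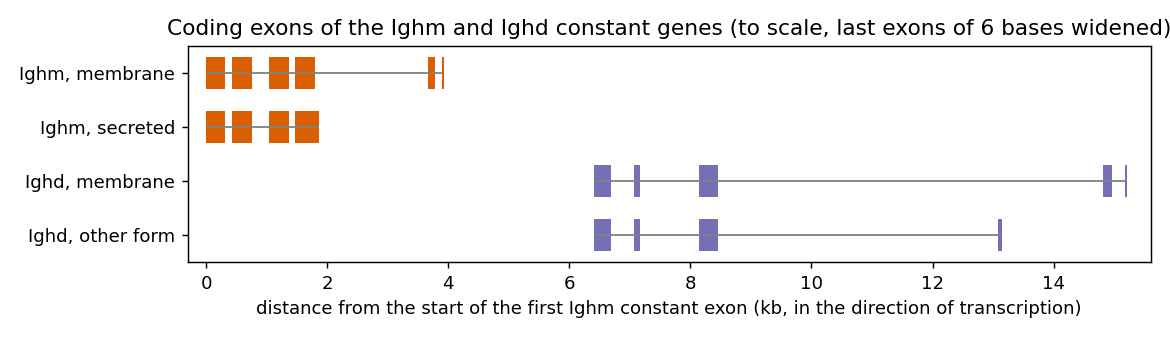
Coding exons of Ighm (orange) and Ighd (purple) as boxes, drawn to scale except for the last membrane exons of 6 bases, which are widened, against the distance in kb from the start of the first Ighm constant exon, in the direction of transcription, with 1 annotated transcript per line. The last membrane exon of Ighm ends 3.90 kb, the first Ighd exon begins 6.41 kb and the last membrane exon of Ighd ends 15.2 kb from that start.

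The libraries held between 7748787 and 15742445 counts. Of the genes shared by both tables, 42.6% to 46.7% had a count in Het libraries and 50.4% to 51.5% in KO libraries. Libraries of the same group resembled each other more closely in KO than in Het mice, with a median correlation of log2 expression of 0.959 in KOTP, 0.797 in HetTP, 0.960 in KOTN and 0.766 in HetTN. Markers of other cells differed with genotype. The summed level of 8 T cell markers was 0.489 to 1.73 CPM (counts per 1000000 of the library total) in KOTP and 142 to 594 CPM in HetTP, and 0.258 to 1.64 CPM in KOTN and 208 to 499 CPM in HetTN, with Cd3e at 0 in both KO groups and Cd4 at 0 in all groups. For 9 macrophage markers it was 45.4 to 83.7 CPM in KOTP and 120 to 648 CPM in HetTP, and 59.2 to 91.1 CPM in KOTN and 427 to 1130 CPM in HetTN, with no marker at 0. Most of the T cell sum in Het libraries was Trac, with a mean of 289 CPM in HetTP and 286 CPM in HetTN. Cd3d, Cd3e and Cd3g each had a lowest level of 0 CPM in both Het groups. Cd3e averaged 2.83 ± 5.65 CPM in HetTP, with a highest level of 11.3 CPM. The macrophage marker Adgre1 went the other way, uncalled, with 37.2 CPM in KOTP, 40.4 in KOTN, 10.9 in HetTP and 12.5 in HetTN. The part of these cells in the differences below was not tested. Of 4 T cell markers tested 2 fell in each genotype comparison, and of 9 macrophage markers 5 fell in KOTP against HetTP and 6 in KOTN against HetTN, while 5.22% and 4.88% of all genes tested fell in these comparisons. Among 8 B cell markers none was at 0 in any group. The tables were deposited separately for each genotype, so a difference of batch or of counting cannot be told apart from genotype.

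Zfp318 itself is the targeted gene. It had 2.72, 2.75, 0.866 and 1.12 CPM in KOTP libraries, against 123, 92.7, 101 and 133 CPM in HetTP libraries. It had 5.42, 0.446, 1.40 and 2.10 CPM in KOTN libraries, against 78.8, 152, 116 and 128 CPM in HetTN libraries. Every KO library lay below every Het library, as the genotype labels have it, and the highest KO value came from a tdTomato-negative library. The KO levels rest on few reads, 8 to 22 counts per library in KOTP and 4 to 42 in KOTN. Summed over the group they amount to 1.72 CPM in KOTP, with an exact 95% Poisson interval of 1.33 to 2.17, and to 2.23 CPM (1.76 to 2.78) in KOTN. These intervals cover counting error only, since reads without molecular identifiers are not independent molecules. The counts are sums over the coding sequence, so where in Zfp318 the remaining reads of KO cells lie was not analysed here.

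Ighd, the heavy chain of IgD, followed the same pattern. Its level was 21.7, 26.5, 15.1 and 25.1 CPM in KOTP libraries, against 1170, 810, 883 and 1132 CPM in HetTP libraries. In tdTomato-negative cells it was 41.6, 20.5, 24.2 and 24.8 CPM in KOTN libraries, against 1142, 808, 814 and 947 CPM in HetTN libraries. The highest KO value, in the KOTN library that also had the most Zfp318, was far below the lowest Het value. Both genotypes had been sorted as negative for surface IgD, so these are the Ighd messages of cells without surface IgD by the sort. The Ighd of KO cells was low but counted in each library, with 139 to 359 counts in KOTP and 184 to 322 in KOTN.

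Ighm, the heavy chain of IgM, was lower in KO cells by a smaller factor and stayed an abundant message. It had 2528, 2447, 2807 and 2485 CPM in KOTP libraries, against 13670, 8158, 8180 and 8341 CPM in HetTP libraries. It had 2811, 2850, 2662 and 2617 CPM in KOTN libraries, against 21510, 13270, 9376 and 10340 CPM in HetTN libraries. The KO libraries lay within a narrow band, with a coefficient of variation over libraries of 6.38% in KOTP and 4.13% in KOTN. The Het libraries spread more widely, at 28.4% in HetTP and 40.5% in HetTN, and no KO library reached a Het library. In sorted cells measured in bulk, fewer cells with a message and less of it per cell cannot be told apart.

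**Figure D2:**
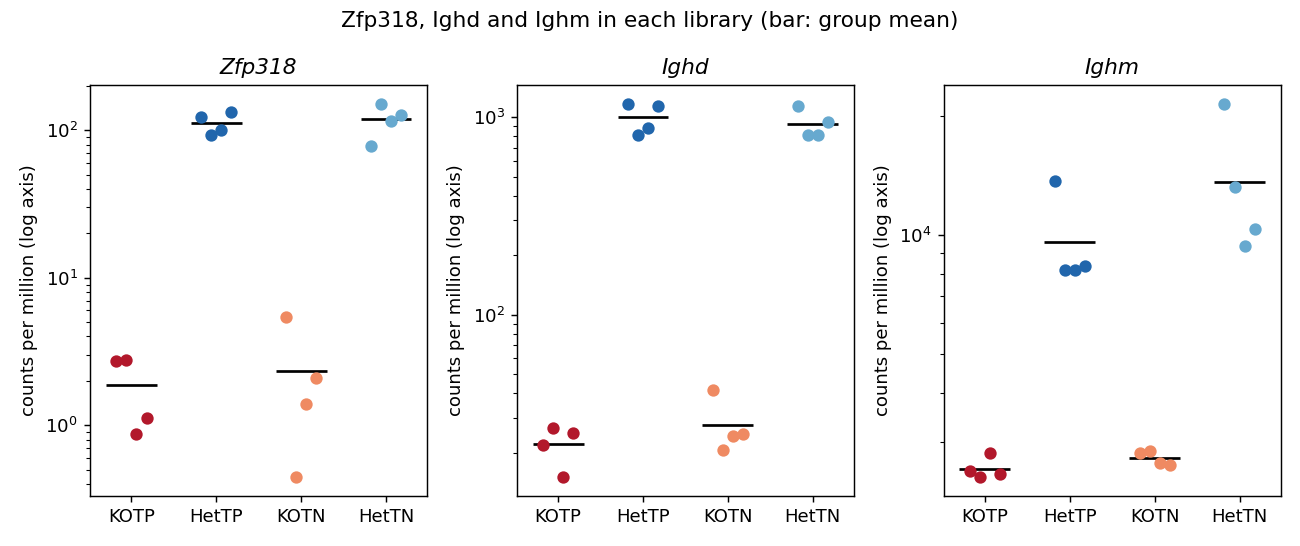
Level of Zfp318, Ighd and Ighm in each library, in CPM on a log axis. Points are single libraries and bars are means of the 4 libraries of a group. For all 3 genes every KOTP and KOTN point lies below every HetTP and HetTN point, with means of 1.86 CPM in KOTP and 112 CPM in HetTP for Zfp318.

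In the fit of KOTP against HetTP all 3 genes fell, whereas 10.3% of the 10687 genes tested passed in either direction, 5.06% rose and 5.22% fell. With edgeR's quasi-likelihood test and Benjamini-Hochberg adjustment over all genes, called at an adjusted p under 0.05, Zfp318 had a log2 fold change of -5.72 in KOTP (SE 0.55, adjusted p = 3.01e-06), which is 52.7-fold lower. Ighd fell by 5.27 on the log2 scale (SE 0.25, adjusted p = 2.67e-10), which is 38.5-fold, and had the smallest p of all genes tested. Ighm fell by 1.67 (SE 0.19, adjusted p = 1.80e-05), or 3.19-fold. The 95% confidence intervals of Zfp318, -6.87 to -4.57, and Ighd, -5.79 to -4.74, overlap each other but not that of Ighm, -2.07 to -1.27.

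Among tdTomato-negative cells, KOTN against HetTN, the 3 genes fell again, beside 10.5% of all genes passing in either direction, 5.61% rising and 4.88% falling. The log2 fold change was -5.60 for Zfp318 (SE 0.54, adjusted p = 3.58e-06), a 48.5-fold lower level in KOTN. For Ighd it was -4.97 (SE 0.25, adjusted p = 5.81e-10), 31.2-fold lower and again the smallest p of the 10687 genes. For Ighm it was -2.20 (SE 0.20, adjusted p = 1.60e-06), 4.61-fold lower. All 3 genes passed in both genotype comparisons under each alternative fit and with each library left out in turn. With library totals as the only scaling the median over all genes was -0.25 in KOTP against HetTP and 0.14 in HetTP against HetTN, and with voom it was 0.19 in KOTP against HetTP and 0.33 in KOTN against HetTN. These shifts are smaller than the falls of Zfp318, Ighd and Ighm.

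By group mean, Zfp318 and Ighm were highest in HetTN, followed by HetTP, KOTN and KOTP. For Ighd HetTP came first, followed by HetTN, KOTN and KOTP. In all 3 genes the ranges of HetTP and HetTN overlapped and so did those of KOTP and KOTN, while the step between the lower Het group and KOTN had no overlap. How many of all genes tested separate the genotypes in this way was not counted. To set the genes beside each other, levels were divided by the annotated coding length. Per kb of coding sequence KOTP cells averaged 1727 ± 110 CPM of Ighm, 23.6 ± 5.45 CPM of Ighd and 0.272 ± 0.148 CPM of Zfp318 (SD, n = 4). HetTP cells averaged 6452 ± 1834 CPM of Ighm, 1066 ± 191 CPM of Ighd and 16.4 ± 2.76 CPM of Zfp318 on this scale. Ighm was thus the highest and Zfp318 the lowest of the genes in both, and the gap between Ighm and Ighd was wider in KOTP. KOTN cells averaged 1840 ± 76.1 CPM of Ighm and 29.6 ± 10.0 CPM of Ighd per kb, against 9167 ± 3709 and 990 ± 167 CPM per kb in HetTN cells.

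The ratio of Ighd to Ighm counts shows how the 2 messages of one locus were shared within a library, independently of scaling. KOTP libraries had 0.859, 1.08, 0.536 and 1.01 Ighd counts per 100 Ighm counts, against 8.56, 9.93, 10.8 and 13.6 in HetTP libraries. KOTN libraries had 1.48, 0.719, 0.908 and 0.947, against 5.31, 6.09, 8.68 and 9.16 in HetTN libraries. The highest ratio in a KO library was below the lowest in a Het library. With both genes taken per kb of coding sequence the ratios were 0.850 to 1.72 per 100 in KOTP, 13.6 to 21.5 in HetTP, 1.14 to 2.35 in KOTN and 8.42 to 14.5 in HetTN.

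The mean log2 ratio was -6.89 in KOTP and -3.24 in HetTP, a difference of -3.65 (SE 0.27), or a 12.5-fold lower ratio in KOTP. In KOTN it was -6.68 and in HetTN -3.81, a difference of -2.87 (SE 0.29), or 7.28-fold lower in KOTN. In both comparisons the two-sided exact permutation test gave p = 0.0286, the smallest that 4 against 4 libraries allow, and an adjusted p = 0.0714 over the 5 ratio comparisons, so neither passes after adjustment. Over both sorted populations, with genotype labels permuted within each population, the difference was -3.26, a 9.56-fold lower ratio in KO cells, with an exact p = 0.000408, the smallest the 4900 arrangements allow. This combined test was added after the values were seen. It permutes tdTomato-positive and tdTomato-negative libraries separately, as if they came from different mice, which the labels do not say. If they shared mice, this p is too small. The genotype difference in the ratio exceeded the spread within groups, where the SD of the log2 ratio was 0.46 in KOTP, 0.28 in HetTP, 0.43 in KOTN and 0.38 in HetTN.

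**Figure D3:**
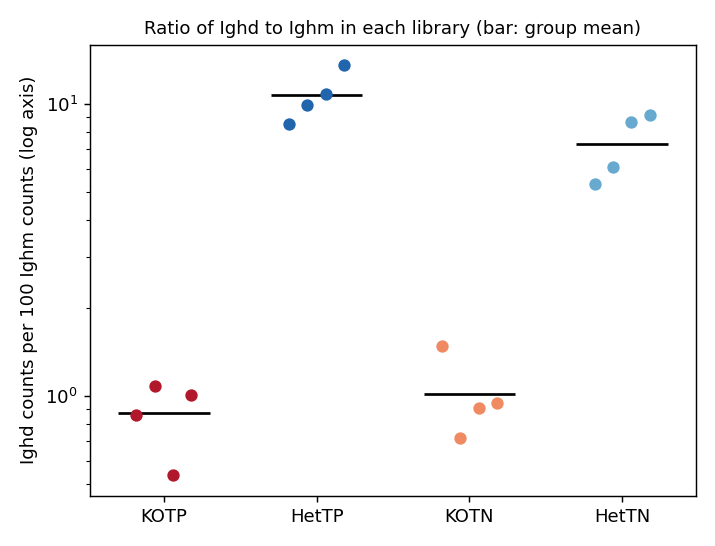
Ighd counts per 100 Ighm counts in each library on a log axis, with points for libraries and bars for the mean of the 4 libraries of a group. Means are 0.872 in KOTP, 10.7 in HetTP, 1.01 in KOTN and 7.31 in HetTN, and no KO point reaches a Het point.

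Within each genotype the sorted populations were compared as well. In tdTomato-positive against tdTomato-negative Het cells none of the 3 genes passed edgeR's test, beside 1.07% of all genes. On the log2 scale Zfp318 differed by -0.21 (SE 0.43, adjusted p = 0.886), with a 95% interval of -1.12 to 0.69. Ighd differed by -0.01 (SE 0.21, adjusted p = 0.997), with an interval of -0.44 to 0.42. A difference of either message was not detectable between cells sorted for and against the reporter, and the interval of Ighd is the narrower. Ighm differed by -0.61 (SE 0.19, adjusted p = 0.101) and was the only one of the 3 with an unadjusted p under 0.05, at 0.00449. Of the 10687 genes tested, 1731 had an unadjusted p under 0.05 in this comparison, and Ighm was in place 473 by p. Voom called none of the 3. DESeq2 called Ighm lower in HetTP (adjusted p = 0.0222), and so did edgeR without HetTP library 1, the one with the most Ighm, at -0.83 (adjusted p = 0.0369). The Ighd to Ighm ratio was higher in HetTP than in HetTN by 0.57 on the log2 scale (SE 0.24, 1.48-fold, exact permutation p = 0.0857, adjusted p = 0.107), with overlapping ranges.

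In tdTomato-positive against tdTomato-negative KO cells none of the 3 genes passed either, with edgeR, DESeq2 or voom, and none had an unadjusted p under 0.05 in edgeR's test, beside 0.0187% of all genes passing. The log2 fold changes were -0.33 for Zfp318 (SE 0.53), -0.31 for Ighd (SE 0.22) and -0.07 for Ighm (SE 0.19), each with an adjusted p = 1. Without KOTN library 1 that of Zfp318 was 0.50. The ratio differed by -0.21 on the log2 scale (SE 0.32, exact permutation p = 0.543). For the difference between the tdTomato effects, KO minus Het, 0.122% of all genes passed and none of the 3 did, nor with DESeq2 or voom, and none had an unadjusted p under 0.05 in edgeR's test. That difference was -0.12 for Zfp318 (SE 0.67, adjusted p = 0.998), -0.30 for Ighd (SE 0.30, adjusted p = 0.898) and 0.53 for Ighm (SE 0.26, adjusted p = 0.565). For the ratio it was -0.78 (SE 0.39, exact permutation p = 0.0678, adjusted p = 0.107). The edgeR fit shares its estimate of spread over all 16 libraries. As a common coefficient of variation over genes tested, that spread was 0.980 in Het and 0.211 in KO libraries. Standard errors within a genotype therefore carry the spread of the other. The 3 genes did not all follow the common value. Zfp318 had 0.308 in Het and 0.602 in KO libraries, Ighd 0.236 and 0.213, and Ighm 0.288 and 0.0755. With the compared libraries alone 236 genes passed in KOTP against KOTN and 0 in HetTP against HetTN, none of the 3 among them.

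**Figure D4:**
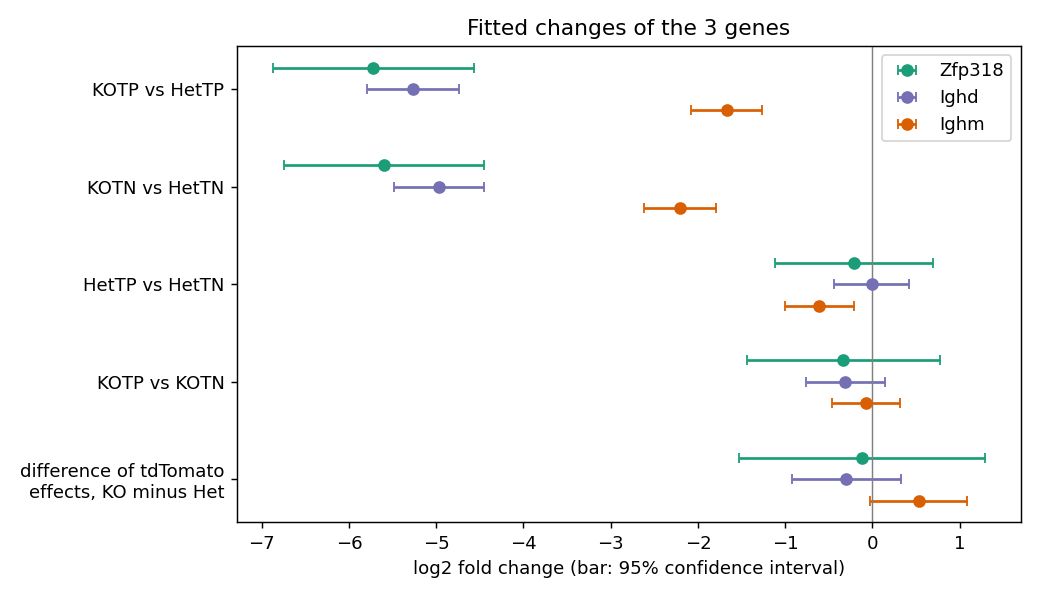
Fitted log2 fold changes of Zfp318 (green), Ighd (purple) and Ighm (orange) in the 5 comparisons, with 95% confidence intervals as bars. Only the genotype comparisons hold intervals of all 3 genes away from 0, with Zfp318 at -5.72 and -5.60 and Ighm at -1.67 and -2.20.

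Within a genotype the level of Zfp318 and that of Ighd were compared across libraries, both as log2 CPM. Over the 8 KO libraries Zfp318 and Ighd had a Pearson r of 0.738 (exact permutation p = 0.0385, adjusted p = 0.115 over 6 relations) and a Spearman rho of 0.762 (p = 0.0368 by exact permutation, adjusted p = 0.110). Zfp318 and the ratio of Ighd to Ighm had r = 0.773 in KO libraries (exact permutation p = 0.0256, adjusted p = 0.115) and rho = 0.762 (adjusted p = 0.110). None of these passes after adjustment, and without the 2 KOTN libraries with the most and the least Zfp318 r was 0.589 with Ighd and 0.619 with the ratio. Over the 8 Het libraries Zfp318 had r = -0.129 with Ighd (exact permutation p = 0.752, adjusted p = 0.819; rho = -0.167) and r = 0.225 with the ratio (exact permutation p = 0.595, adjusted p = 0.819; rho = 0.119). Ighm and Ighd had r = -0.105 in KO and r = 0.469 in Het libraries (exact permutation p = 0.819 and 0.238). The KO levels of Zfp318 rest on 4 to 42 counts, so counting error is part of that spread.

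Ighm and Ighd were also read as shares of all counts over 8 heavy chain constant genes. In KOTP libraries Ighd made up 0.269% to 0.528% and switched genes (Ighg1, Ighg2b, Ighg2c, Ighg3, Igha and Ighe) 48.7% to 52.3%, against 7.30% to 11.1% and 3.60% to 7.33% in HetTP libraries. In KOTN libraries Ighd made up 0.372% to 0.824% and switched genes 43.5% to 53.8%, against 4.87% to 7.79% and 3.43% to 34.2% in HetTN libraries. The upper end in HetTN came from library 3, where Ighg2c reached 4698 CPM, and the other 3 HetTN libraries had at most 7.17%. Ighm took the rest, 47.3% to 50.8% in KOTP and 81.9% to 87.7% in HetTP. The ranges of the switched share did not overlap between KOTP and HetTP, nor between KOTN and HetTN. All constant genes together amounted to 5212 ± 316 CPM in KOTP and 11310 ± 3158 CPM in HetTP, and to 5504 ± 330 CPM in KOTN and 16440 ± 4888 CPM in HetTN (SD, n = 4).

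**Figure D5:**
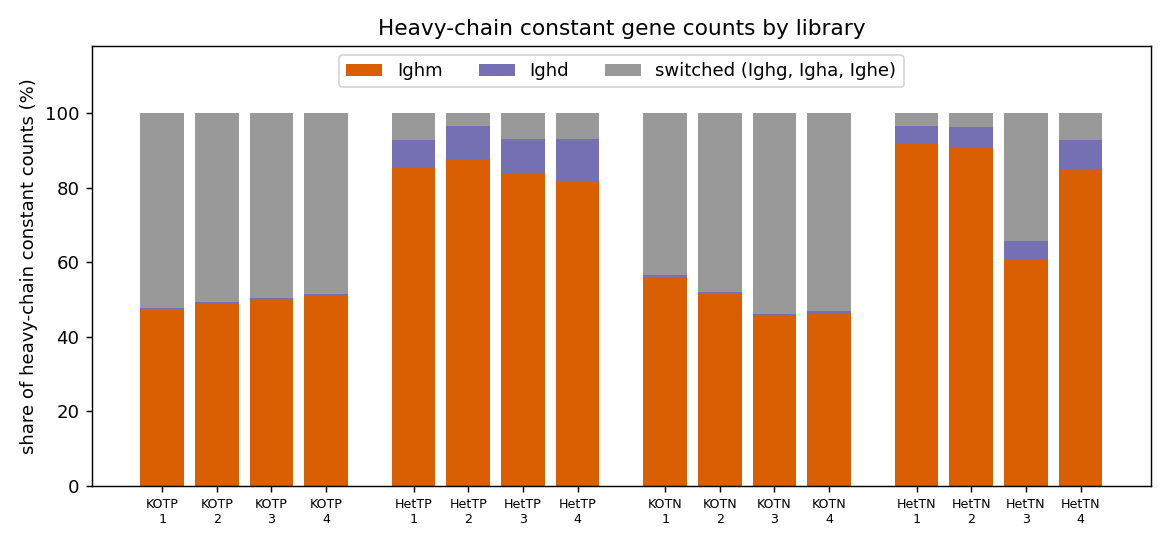
Share in percent of Ighm (orange), Ighd (purple) and switched genes (grey) among the counts of the 8 heavy chain constant genes, 1 bar per library. Switched genes take 43.5% to 53.8% in KOTN and 48.7% to 52.3% in KOTP libraries, and the purple Ighd band is at most 0.824% there.

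Of the 6 switched constant genes 2 rose in KOTP against HetTP and none fell, where 5.06% of all genes tested rose, with a median log2 fold change of 1.46 beside -0.03 over all genes tested. Ighg2b averaged 1476 ± 104 CPM in KOTP and 318 ± 149 CPM in HetTP, a log2 fold change of 2.43 (adjusted p = 4.31e-05). Ighg3 passed at 1.25 (adjusted p = 0.0337) but in only 7 of 18 alternatives. In KOTN against HetTN, where 5.61% of all genes rose, Ighg2b alone passed, at 2.25 (adjusted p = 0.000117). Reads of the similar IgG2 genes may be split between them, since the treatment of reads with several matches is not given in the sources used here.

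The partners of the IgM and IgD receptors did not move one way. Of 8 genes, 3 rose and 3 fell in KOTP against HetTP (median log2 fold change 0.48, with 5.06% of all genes rising and 5.22% falling), and 2 rose and 3 fell in KOTN against HetTN (median -0.52, beside 0.00465 over all genes tested, of which 5.61% rose and 4.88% fell). Iglc1, the lambda 1 light chain constant gene, averaged 11100 ± 377 CPM in KOTP and 1680 ± 382 CPM in HetTP, a log2 fold change of 2.95 (adjusted p = 3.36e-10), and rose by 1.92 in KOTN against HetTN (adjusted p = 2.68e-07). Igkc, the kappa constant gene, averaged 1254 ± 110 CPM in KOTP and 8739 ± 4409 CPM in HetTP. Its log2 fold change was -2.57 in KOTP (adjusted p = 1.30e-05) and -3.12 in KOTN (adjusted p = 2.51e-06). Jchain, which links IgM and IgA into polymers, fell in both, with -4.44 in KOTP and -2.78 in KOTN, and Fcmr, the Fc receptor of IgM, fell by 1.27 in KOTN (adjusted p = 6.28e-07). Cd79b, a signalling subunit of both receptors, rose by 0.74 in KOTP (adjusted p = 0.000146). Lambda constant genes share near-identical stretches, so Iglc1 reads are uncertain in part.

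Transcription factors known to act on the heavy chain locus were lower or not called. Of 9 factors 4 fell and none rose in each genotype comparison, beside 5.22% of all genes falling in KOTP against HetTP and 4.88% in KOTN against HetTN. Their medians were -0.81 and -0.77, against -0.03 and 0.00465 over all genes tested. Tcf3, which encodes the E proteins E12 and E47, averaged 79.8 ± 4.71 CPM in KOTP and 336 ± 152 CPM in HetTP, with log2 fold changes of -1.84 (adjusted p = 0.00149) and, in KOTN against HetTN, -1.53 (adjusted p = 0.00755). Pax5, the factor of B cell identity, fell with -1.54 in KOTP and -1.61 in KOTN, and Pou2f2, which encodes OCT2, with -0.94 and -0.99. Both kept the call in 15 of 18 alternatives in KOTP and in 17 of 18 in KOTN. Pou2af1, a coactivator of OCT proteins, passed in KOTP alone (-0.85, adjusted p = 0.0245) and Pou2f1 in KOTN alone (-0.96, adjusted p = 0.0356), which kept the call in 14 and 9 of 18 alternatives.

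Genes of mRNA cleavage, polyadenylation and transcript termination, the step that decides between the Ighm and Ighd ends of the long RNA, were counted next. Of 19 tested, 4 fell in KOTP and 3 in KOTN and none rose, beside 5.22% and 4.88% of all genes falling, with medians of -0.46 and -0.33 against -0.03 and 0.00465 over all genes. Ell2, an elongation factor that promotes the secreted form of heavy chains in plasma cells, averaged 9.46 ± 2.48 CPM in KOTP and 38.0 ± 22.4 CPM in HetTP (log2 fold change -1.78, adjusted p = 0.0115), a call lost without HetTP library 1 (adjusted p = 0.0511). In KOTN against HetTN it fell by 2.01 (adjusted p = 0.00680). Sympk, the scaffold symplekin, fell with -1.08 in KOTP and -0.95 in KOTN, the second kept in 9 of 18 alternatives. Cstf2 and Cpsf1 passed in KOTP alone, at -1.14 and -0.89, and kept the call in 7 and 9 of 18 alternatives. Nudt21, a subunit of cleavage factor I, passed in KOTN alone at -0.86 (adjusted p = 0.00939). Hnrnpll, a splicing regulator of plasma cells, had no count in KO libraries and was not tested. It was also near absent in Het libraries, with 5 counts in all in HetTN and 0 to 9.49 CPM in HetTP (mean 2.56).

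Markers of cell states in which the IgM to IgD balance is known to differ were counted in the same fits, in which 5.06% of all genes rose and 5.22% fell in KOTP, and 5.61% rose and 4.88% fell in KOTN. Of 7 genes of naive follicular cells 2 fell in KOTP against HetTP and 3 in KOTN against HetTN. Klf2, a regulator of trafficking, fell in both, with log2 fold changes of -1.42 in KOTP and -1.54 in KOTN. Bach2, a repressor of plasma cell fate, fell by 1.23 in KOTN (adjusted p = 0.00177). Of 6 germinal center markers 4 fell in KOTP and 3 in KOTN, among them Bcl6, the regulator of the germinal center program, at -1.77 and -1.91, and Gcsam at -4.56 and -2.05. Of 6 plasma cell markers tested 1 rose and 2 fell in KOTP and 1 fell in KOTN, with Jchain lower in both and Mzb1, a chaperone of IgM assembly, higher by 0.82 in KOTP. Of 8 B cell markers 6 rose and 1, Pax5, fell in each genotype comparison.

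Zfp318 was set beside the 5 protein-coding genes on either side of it, of which 6 were tested. Only Yipf3, 131 kb away, passed, at 155 ± 6.95 CPM in KOTP and 73.9 ± 24.0 CPM in HetTP (log2 fold change 1.30, adjusted p = 0.000283). In that comparison 10.3% of all genes tested passed in either direction and 5.06% rose. In KOTN against HetTN no neighbour passed, beside 10.5% of all genes tested, and Yipf3 had 0.50 (adjusted p = 0.120).

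Across all 16 libraries Ighd had the pattern most like that of Zfp318 among 7004 genes, and Zfp318 that most like Ighd. Likeness was the root mean square difference of mean-centred log2 CPM, and it was 0.646 for the pair. Over both genotypes this measure mostly restates the KO falls already given, and Zfp318 reached the mean level required through its Het libraries. Within the Het libraries alone Zfp318 and Ighd had the r of -0.129 above. Next after Ighd for Zfp318 came Sf3a2, a splicing factor subunit, at 0.978 and Rnf44, a RING finger gene, at 1.11, followed by Hmox1 and C1qc. Sf3a2 averaged 5.45 ± 2.81 CPM in KOTP and 102 ± 8.84 CPM in HetTP. For Ighd the next were Sf3a2 at 0.653, Rnf44 at 0.901, Hmox1 and Ifi208. Hmox1 and C1qc belong to the macrophage markers that were lower in KO libraries. For Ighm the most alike was Prr5 at 0.258, then Mcoln2, Smarcc1, Rara and Fcho1. Ighm was 2.10 from Zfp318 and 1.67 from Ighd. At these distances Ighm still took place 47 among the 7004 genes for Zfp318 and place 40 for Ighd. In the order for Ighm, Zfp318 took place 6751 and Ighd place 6317.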

How the data were processed

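Smart-seq2 libraries of 16 sorted samples were analysed. Per the submitters' processing notes the authors used Trim Galore, STAR 2.2.0, featureCounts and mm10; strand and multi-match settings are not given in the sources used here. The authors deposited 1 table of raw counts over coding sequence per genotype, per the file headers; the 16 RPM columns beside them were not used. The 22680 entries of each table were joined by symbol to 22675 genes, leaving out the 4 entries of 2 duplicated names and 1 name without a partner. Levels are counts per 1000000 of the library total (CPM). Tests used edgeR 4.0.16 in R 4.3.3: TMM scaling, filterByExpr by group (10687 genes), robust quasi-likelihood fit of 4 group means over all 16 libraries, Benjamini-Hochberg adjustment. The test was checked on simulated data. The log2 ratio of Ighd to Ighm was compared with two-sided exact permutation tests (scipy 1.17.1). Alternatives were RLE, upper quartile and no scaling factors, scaling without immunoglobulin genes, no filter, 5 CPM in 4 libraries, DESeq2 1.42.0, limma voom 3.58.1 with quality weights, a replicate block, the compared libraries alone, and each library left out. Named were the 3 genes, from each list up to 4 genes with the smallest p past the threshold per genotype comparison (2 in others), the 5 most alike genes per member with mean log2 CPM of at least 3, and 5 neighbours on each side of Zfp318. The members and lists were chosen with earlier results of these data known. Positions and coding lengths are from GENCODE M21, which held 88.8% of the symbols. Replicate numbers were not used to pair the libraries outside the replicate block. Correlations of same-numbered deviations ran from -0.0289 to 0.0868, the highest between HetTP and HetTN number 1. Because Het libraries varied widely, such low values cannot exclude that same-numbered libraries came from one animal. One gene of the naive follicular list is not reported here.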

Additional observations from a re-analysis of the deposited data

Results flagged for a closer look

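In HetTP cells library 1 stood apart from the other 3 in Ighm, at 13670 CPM, in all heavy chain constant counts, at 16020 CPM, in Ighg1, at 333 CPM, and in Ighe, at 142 CPM, and library 2 in the share of switched genes, at 3.60%. In KOTN cells library 1 stood apart in the share of Ighd, at 0.824%. In HetTN cells library 3 stood apart in the share of switched genes, at 34.2%, in Ighg2c, at 4698 CPM, and in Ighg3, at 328 CPM. These are 9 of 56 sets of 4 libraries examined, in which the gap of one library exceeded Dixon's critical value; chance gives about 1 in 20, and sets from the same libraries are not independent. The difference between the tdTomato effects in KO and Het cells passed edgeR's test for Iglc1 (1.02 on the log2 scale, adjusted p = 0.0429) and for Fcmr (0.86, adjusted p = 0.0368), which kept the call in 11 and 16 of 25 alternatives. In edgeR's test Fcmr was higher in KOTP than in KOTN by 0.67 (adjusted p = 0.0447), a call kept in 8 of 18 alternatives and in none of the leave-outs. Iglc1 was lower in HetTP than in HetTN, with -0.92 (adjusted p = 0.00396), kept in 17 of 18. The call was lost in edgeR's test with the compared libraries alone (adjusted p = 0.568). That fit takes its spread from Het libraries only, and it called 0 genes in this comparison.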

How the results depend on the processing

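The fall of Zfp318, Ighd and Ighm in both genotype comparisons kept its direction and its call in all alternatives, the leave-outs included; over the alternatives other than leave-outs Ighd ranged from -5.50 to -5.17 in KOTP against HetTP and from -5.13 to -4.89 in KOTN against HetTN. Counts of all genes called, from edgeR unless named, moved by more than 1.5 times as follows. KOTN against HetTN gave 1121 calls and 724 with the compared libraries alone. HetTP against HetTN gave 114, and 709 with DESeq2, 4 with voom, 54 with the replicate block and 0 with the compared libraries alone, where 487 genes had an unadjusted p under 0.05. KOTP against KOTN gave 2, and 1 with library totals alone, 0 without a filter (218 at an unadjusted p under 0.05), 11 with DESeq2, 338 with voom, 0 with the replicate block (152) and 236 with the compared libraries alone. The difference of tdTomato effects gave 13, and 6 with library totals alone, 194 with DESeq2, 7 with voom and 1 with the replicate block. With each library left out the counts ran from 722 to 1120, 608 to 1280, 123 to 488, 0 to 1 and 1 to 41 in the order of the comparisons in the text. Genes higher in KO made up 49.2% of calls in KOTP against HetTP and 53.5% in KOTN against HetTN, against 59.6% and 63.5% with upper quartile scaling and 27.8% and 43.4% with library totals alone. Among uncalled values Ighd in HetTP against HetTN was 0.11 with library totals alone and 0.0163 with voom, and -0.0929 to 0.0805 with each library left out. Ighm there was -0.61 with DESeq2 (called) and -0.83 to -0.36 in leave-outs. With voom Zfp318 was 0.31 in KOTP against KOTN and 0.45 for the difference of tdTomato effects, and in leave-outs -0.69 to 0.50 and -0.47 to 0.71. The ratio of Ighd to Ighm over both populations was -3.26 and passed in the combined test, which takes both populations as coming from different mice. In KOTP against KOTN the ratio ran from -0.36 to 0.00278 in leave-outs. The Ighm level of KOTN was 2871 CPM with TMM scaling. With TMM scaling r changed sign for Ighm with Ighd in KO (0.031) and Zfp318 with Ighd in Het libraries (0.00825). Without the 2 farthest libraries it was 0.0829 for Ighm with Ighd in KO, and in Het libraries 0.0382 for Zfp318 with Ighd, -0.454 for Zfp318 with the ratio and -0.33 for Ighm with Ighd. Permuting the ratio within replicate numbers, as a replicate block, left -3.65 and -2.87 with adjusted p up to 0.156. With 4 pairs this permutation allows no p under 0.05 in these comparisons, so it could not pass. Depth limits Zfp318 in KO cells.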
